A study of Nothobranchius furzeri with 12 samples.

Results

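The genes aanat1 and aanat2 encode arylalkylamine N-acetyltransferases, the enzymes that acetylate serotonin on the way to melatonin. They are 2 of the 25122 genes in the deposited count table, chosen by their rows LOC107382246 (aanat1) and LOC107378383 (aanat2), which the RefSeq annotation of the turquoise killifish (NfurGRZ-RIMD1) gives these symbols. The samples were retina with its attached retinal pigment epithelium from 12 male Nothobranchius furzeri, a short-lived annual fish, with 3 fish at each of 4 ages, the youngest 1.5 months and then 3.0 months, 4.5 months and 6.0 months. Per the labels, every fish came from a mutant line bred back over generations to the GRZ strain and received no treatment. The mutated gene and the genotype of each fish are not given in the sources used here, so a genotype that differed between ages cannot be told apart from age. The time of day at which the fish were killed is also not given in the sources used here.

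Melatonin is made from tryptophan in a chain of enzyme steps. Tryptophan hydroxylase and aromatic amino acid decarboxylase make serotonin, AANAT acetylates it, and acetylserotonin O-methyltransferase (ASMT) adds a methyl group. In vertebrates melatonin is produced at night by the pineal organ and by retinal photoreceptors, and AANAT activity sets much of its daily rhythm. Teleost fish carry several aanat genes; in the species best studied, aanat1 is mainly a retinal gene and aanat2 mainly a pineal gene. No protein or promoter sequence of either gene is printed here.

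Libraries held from 34437141 to 50268318 counts. Retinal identity was seen in the summed levels of marker genes, at 5431 to 16440 CPM (counts scaled to library size) for 15 rod genes and 17870 to 35580 CPM for 12 cone genes. Lens markers stood out in 3 libraries: the sum was 833.7 CPM for 1.5 months replicate 2, 2041 CPM for 4.5 months replicate 1 and 15650 CPM for 6.0 months replicate 1, while the other 9 had 11.43 to 67.18 CPM. Markers of the cornea and body surface were highest in 1.5 months replicate 1, at 5075 CPM against at most 713 CPM elsewhere. The library names of 4.5 months replicates 2 and 3 carry the unexplained word Resub.

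Both genes had their lowest levels at 1.5 months. Levels are given as CPM on library sizes scaled by the TMM method, a correction for differences in RNA composition. The aanat1 RNA stood at 127.4, 46.64 and 89.79 CPM in replicates 1 to 3 of 1.5 months. At 3.0 months it stood at 160.7, 206.0 and 144.0 CPM. At 4.5 months the fish had 279.4, 224.4 and 202.2 CPM, and at 6.0 months 196.8, 164.0 and 204.6 CPM. Every fish of 1.5 months was thus below each of the 9 older fish, while the 3 older ages overlapped apart from 4.5 months replicates 1 and 2, which lay above all others of 3.0 and 6.0 months. Means were 87.96 ± 40.44, 170.2 ± 32.09, 235.3 ± 39.74 and 188.5 ± 21.57 CPM at the 4 ages (SD, n = 3 each), or 1.94, 2.68 and 2.14 times the mean of 1.5 months at the later ages. The fish of 1.5 months varied most, with an SD of 46.0% of the mean against 11.4 to 18.9% later.

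**Figure D1:**
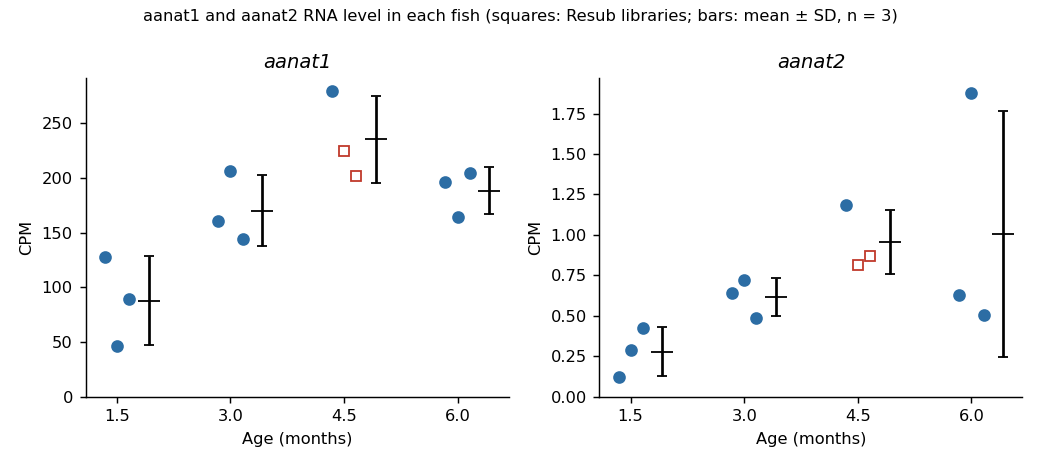
RNA level in CPM (linear axes from 0) of aanat1 (left) and aanat2 (right) against age in months; each point is 1 fish, open squares are the Resub libraries, and bars give the mean ± SD of 3 fish. All 3 fish of 1.5 months lie below all older fish for both genes, and aanat2 in 6.0 months replicate 2 (1.879 CPM) lies above every other fish.

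The aanat1 RNA rose from 1.5 to 4.5 months, and this was its only contrast of 2 ages that passed. The log2 change was 1.42 ± 0.30 (SE; edgeR adjusted p = 0.0325; adjusted over all 20717 tested genes, of which 3.03% passed in this contrast and 1.11% passed upward). Against 1.5 months the log2 change was 0.95 ± 0.29 at 3.0 months (edgeR adjusted p = 0.226, 0.0193% of genes passed) and 1.1 ± 0.29 at 6.0 months (edgeR adjusted p = 0.0692; 2.78% of genes passed, 1.75% upward). Between neighbouring later ages the test was not passed, with log2 changes of 0.47 ± 0.29 from 3.0 to 4.5 months (edgeR adjusted p = 0.498; 0.319% passed, 0.116% upward) and -0.32 ± 0.29 from 4.5 to 6.0 months (edgeR adjusted p = 0.64; 0.599% passed, 0.174% upward). From 3.0 to 6.0 months it was 0.15 ± 0.29 (edgeR adjusted p = 0.958). In that contrast edgeR called 0 of all genes (0.0%), with 1730 at an unadjusted p under 0.05, and DESeq2 called 199. The order of mean levels was therefore 4.5, 6.0, 3.0 and 1.5 months, in which the first and the last were the ages told apart.

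With all ages tested at once, aanat1 had an edgeR adjusted p of 0.0745, where 2.21% of genes passed. An exact permutation test on aanat1 alone used all 15400 ways to divide the 12 fish into 4 groups of 3. This permutation test gave p = 0.00169 (F 7.51, 1 of 3 such tests, unadjusted), with 73.8% of the variance of log2 CPM between ages. The age pattern of both genes was known when they were chosen, so this permutation p gives no separate test. The slope was 0.25 ± 0.08 log2 units per month of age (edgeR adjusted p = 0.154, where 1.17% of genes passed, 0.719% upward). Leaving out 1 library at a time ended the call for 4.5 against 1.5 months in 6 of 12 fits. In these 6 fits edgeR called 5 to 355 of all genes in this contrast, against 627 in the main fit. In the other 6 fits it called 166 to 2841 genes. Without 1.5 months replicate 2 the log2 change was 1.12 (edgeR adjusted p = 0.0808), and without 1.5 months replicate 3 it was 1.44 (edgeR adjusted p = 0.101). Without 4.5 months replicate 2 or replicate 3 it was 1.45 or 1.51 (edgeR adjusted p = 0.117 or 0.0977). Without 6.0 months replicate 1 or replicate 3 it stayed at 1.42 (edgeR adjusted p = 0.0518 or 0.0509). Without the 3 libraries with lens RNA, which include the lowest and the highest aanat1 library, the change was 0.96 ± 0.23 (edgeR adjusted p = 0.0528). Without the Resub libraries, which leaves 1 fish of 4.5 months assumed to vary like the others, it was 1.66 ± 0.40 (edgeR adjusted p = 0.237).

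The aanat2 RNA was sparse, from 5 to 99 counts in a library. Its counts were 5, 13 and 20 at 1.5 months, which is 0.1221, 0.2905 and 0.423 CPM. At 3.0 months they were 22, 31 and 20 (0.639, 0.7219 and 0.4894 CPM), and at 4.5 months 52, 40 and 44 (1.183, 0.8121 and 0.8711 CPM). The fish of 6.0 months had 26, 99 and 25 counts (0.6299, 1.879 and 0.5048 CPM). As for aanat1, all 3 fish of 1.5 months were below all 9 older fish, and all 3 fish of 4.5 months were above all 3 of 3.0 months, a gap that 9.31% of genes had. At 6.0 months replicate 2 was the highest of the 12 fish, and the other 2 fish lay within the range of 3.0 months. The fish of 6.0 months therefore overlapped those of 3.0 and 4.5 months for both genes, where 7.22% and 9.97% of genes had all 3 older fish above.

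Mean aanat2 levels were 0.2785 ± 0.1508, 0.6168 ± 0.1179, 0.9555 ± 0.1994 and 1.005 ± 0.7598 CPM at the 4 ages (SD, n = 3 each). None of its 6 contrasts passed in edgeR. The widest were 1.84 ± 0.58 at 6.0 months (edgeR adjusted p = 0.107) and 1.76 ± 0.58 at 4.5 months (edgeR adjusted p = 0.108), both against 1.5 months, on the log2 scale. DESeq2 called both. At 3.0 months the log2 change was 1.13 ± 0.58 (edgeR adjusted p = 0.445), and among the later ages it was 0.63 ± 0.55 from 3.0 to 4.5 months, 0.71 ± 0.55 from 3.0 to 6.0 months and 0.08 ± 0.54 from 4.5 to 6.0 months (edgeR adjusted p = 0.66, 0.822 and 0.968). With all ages tested at once aanat2 had an edgeR adjusted p of 0.188. The exact permutation test over 15400 partitions gave p = 0.0226 (F 4.46, unadjusted, 62.6% of the variance between ages). As for aanat1, the pattern was known beforehand, so this permutation p gives no separate test. The slope was 0.40 ± 0.13 log2 units per month (edgeR adjusted p = 0.13). Without 6.0 months replicate 2 the change from 1.5 to 6.0 months was 1.01 in place of 1.84, and that from 3.0 to 6.0 months was -0.12 in place of 0.71.

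Counting error weighs on aanat2 and hardly on aanat1. The exact 95% Poisson interval of the 5 counts in 1.5 months replicate 1 is 1.62 to 11.7, and that of the 20 counts in 1.5 months replicate 3 is 12.2 to 30.9, which holds the counts of all 3 fish of 3.0 months except the 31 of replicate 2. The 99 counts of 6.0 months replicate 2 have an interval of 80.5 to 121. Its lower limit is above the upper limit of 68.2 for the 52 counts of 4.5 months replicate 1. All these limits are raw counts, not scaled to library size. The TMM factors of these libraries were 1.123 and 0.9358, and the gap between their limits does not hold in CPM. Such intervals cover counting error only and take each count as a separate molecule. They are too narrow where 1 molecule gave more than 1 count. Of all table values from 1 to 20, 73.16% were even; how the counts were made was not tested. The limit that a count of 0 would allow (3 counts per library) is 0.0597 to 0.0871 CPM on library sizes without TMM scaling. Each aanat2 value, given with TMM scaling, was above it.

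A position of all 3 fish of 1.5 months below all 9 older fish was found for 637 of the 20717 tested genes (3.07%), both aanat genes among them; against 1.5 months alone, 11.6%, 13.1% and 15.9% of genes had all 3 fish of the next ages above. This share describes the table and gives no test of the pair, whose pattern was known when it was chosen. The lowest aanat1 library, 1.5 months replicate 2, held lens RNA, and the lowest aanat2 library, 1.5 months replicate 1, held surface epithelium RNA. The part of that RNA in these levels was not tested. Summed markers of other cells did not overlap between some ages (not tested). The sum of 10 bipolar cell genes was 1532 to 1651 CPM at 1.5 months and 989.9 to 1053 CPM at 4.5 months, and its r with aanat1 over the 12 libraries was -0.729. The share of all genes with such a gap downward was not counted. The sum of 8 microglia and macrophage genes was 24.4 to 33.34 CPM at 1.5 months and 63.24 to 110.8 CPM at 6.0 months. Of single genes 15.9% had such a gap upward. The r of this sum was 0.533 with aanat1 and 0.611 with aanat2. Over all marker lists r ran from -0.729 to 0.533 with aanat1 and from -0.672 (cornea and surface) to 0.611 with aanat2. The part of any of these cells in the aanat levels was not tested. In bulk tissue, fewer cells of a type and less RNA per cell cannot be told apart.

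The ratio of both genes within a library does not depend on how library size is scaled. It did not pass the test of a difference among the ages. There were 161 to 1040 aanat1 counts for each aanat2 count at 1.5 months, 251 to 294 at 3.0 months, 232 to 276 at 4.5 months and 87.3 to 405 at 6.0 months. Counts were not divided by transcript length, so these numbers follow the ratio over age and do not compare the levels of the genes. The log2 ratio of aanat2 to aanat1 averaged -8.36 ± 1.46, -8.11 ± 0.12, -7.95 ± 0.139 and -7.8 ± 1.19 (SD, n = 3 each; exact permutation test over 15400 partitions, p = 0.86, F 0.195). The ratio spread little at 3.0 and 4.5 months and widely at 1.5 and 6.0 months, where 1.5 months replicate 1 (-10.03) and 6.0 months replicate 2 (-6.447) were the extremes of the 12.

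**Figure D2:**
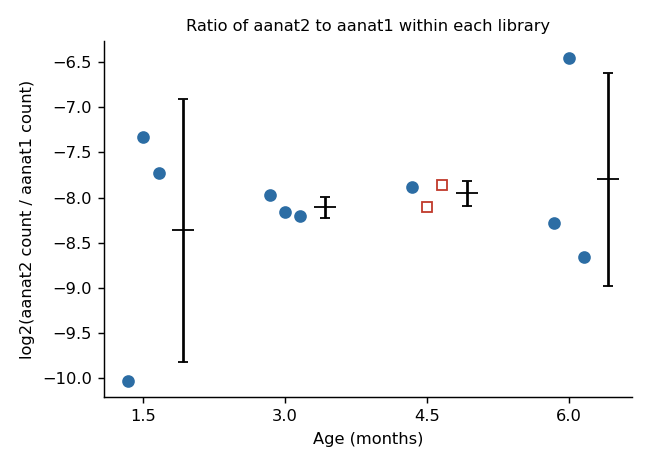
Log2 ratio of aanat2 counts to aanat1 counts in each library (linear axis of log2 units) against age in months; each point is 1 fish, open squares are the Resub libraries, and bars give the mean ± SD of 3 fish. The 6 fish of 3.0 and 4.5 months lie between -8.2 and -7.859, while 1.5 months replicate 1 lies at -10.03 and 6.0 months replicate 2 at -6.447.

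Over the 12 fish the log2 levels of aanat1 and aanat2 had a Pearson r of 0.574 (permutation p = 0.0613) and a Spearman rho of 0.734 (permutation p = 0.00855). The permutations shuffled libraries without regard to age. These p-values therefore do not separate a shared change with age from a link between fish of one age. Without the 2 libraries farthest from the median of aanat1, 1.5 months replicates 2 and 3, r was 0.577. For the deviations of each fish from its age mean r was -0.312. At 3.0 and at 4.5 months the fish highest in aanat1 was also highest in aanat2. At 1.5 and at 6.0 months the fish highest in aanat2 was not the highest in aanat1. The Poisson intervals of the aanat2 counts overlapped among the fish of 3.0 months and among those of 4.5 months. The order of fish is thus not resolved at those ages, and a difference between ages in this was not tested. Without the 3 libraries with lens RNA the r over fish was 0.47 (permutation p = 0.195).

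The other genes of the melatonin route were taken from a list of 18 symbols, of which 10 matched an entry and 9 could be tested. From 1.5 to 4.5 months 1 of these 9 rose and 0 fell in edgeR, against 3.03% of all genes in either direction; 3 had an unadjusted p under 0.05 and DESeq2 called 2. Their median log2 change was 0.03, as was that of all tested genes (0.03). In the other 5 contrasts edgeR called 0 of 9, against 0.0 to 2.78% of all genes, with 0 to 3 at an unadjusted p under 0.05, and DESeq2 called 0 or 1. Over all 20717 tested genes 22.2% had an unadjusted p under 0.05 from 1.5 to 4.5 months and 8.35 to 20.4% in the other contrasts, where DESeq2 called 2090 and 199 to 1911 genes.

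The gene that rose was tph1, a tryptophan hydroxylase, which starts the route. Its RNA stood at 133.2, 117.4 and 126.7 CPM at 1.5 months and at 157.5, 143.4 and 160.0 CPM at 3.0 months. At 4.5 months it stood at 208.0 CPM in replicate 1 but at 543.3 and 563.1 CPM in the Resub libraries, and at 6.0 months at 172.2, 163.6 and 214.7 CPM. The 3 fish of 1.5 months were again below all 9 older fish, and the Resub libraries stood apart from all 10 others. The log2 change from 1.5 to 4.5 months was 1.80 ± 0.30 (edgeR adjusted p = 0.0178) with these libraries. It was 0.72 without them, which leaves 1 fish of 4.5 months. The second hydroxylase gene, tph2, had 9 counts in all 12 libraries together and was not tested.

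The genes of the next enzymes before and after AANAT did not pass in edgeR, where at most 3.03% of all genes passed in a contrast. The decarboxylase gene ddc averaged 21.5, 22.9, 25.7 and 17.9 CPM at the 4 ages. Of the methyltransferase genes, asmt averaged 36.3 ± 9.71, 26.3 ± 7.35, 33.9 ± 5.49 and 23.2 ± 8.53 CPM (SD, n = 3 each). The second methyltransferase gene, asmt2, had 38.89, 38.5 and 37.44 CPM in the fish of 1.5 months and 41.74 to 60.94 CPM in the 9 older fish, a gap without overlap like that of aanat1. Its log2 change from 1.5 months was 0.47 ± 0.15, 0.51 ± 0.15 and 0.41 ± 0.15 at the later ages (edgeR adjusted p = 0.226, 0.077 and 0.146). Thus 2 of the 9 route genes, tph1 and asmt2, had all fish of 1.5 months below all older fish, against 3.07% of tested genes, and none had them above, against 2.92%.

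**Figure D3:**
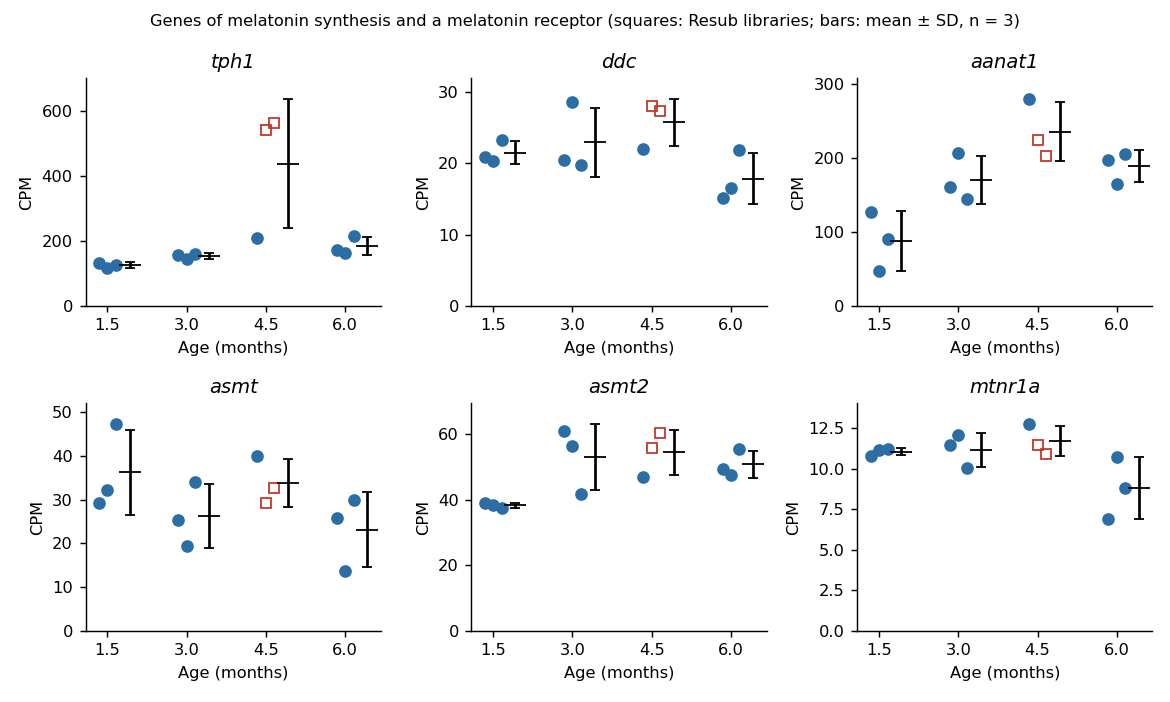
RNA level in CPM (linear axes from 0) of 5 genes of melatonin synthesis and the receptor gene mtnr1a against age in months; each point is 1 fish, open squares are the Resub libraries, and bars give the mean ± SD of 3 fish. The Resub libraries stand at 543.3 and 563.1 CPM for tph1, above the 117.4 to 214.7 CPM of the others, but within the range of the other fish for aanat1.

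No gene for serotonin breakdown or transport passed in edgeR, again against at most 3.03% of all genes in a contrast. The monoamine oxidase gene maob, which degrades serotonin, ran from 15.61 to 26.47 CPM. The serotonin transporter genes slc6a4a and slc6a4b and the vesicular monoamine transporter gene slc18a2 had log2 changes of 0.15, -0.34 and -0.64 from 1.5 to 6.0 months (edgeR adjusted p = 0.863, 0.495 and 0.133). The ASMT-like gene asmtl ran from 14.95 to 22.52 CPM over the 12 fish.

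Of the 4 matched melatonin receptor genes none passed in any of the 6 contrasts in edgeR, where 0.0 to 3.03% of all genes passed. At most 2 had an unadjusted p under 0.05 (8.35 to 22.2% of all 20717 genes), and DESeq2 called at most 1 (199 to 2090 of all genes). The receptor gene mtnr1a had 10.01 to 12.74 CPM in the 9 fish up to 4.5 months and 6.905, 10.72 and 8.825 CPM at 6.0 months (log2 change from 1.5 to 6.0 months -0.32 ± 0.16, edgeR adjusted p = 0.279). The receptor gene mtnr1bb averaged 4.17, 4.27, 1.85 and 3.81 CPM, with the 3 fish of 4.5 months the lowest of the 12 (log2 change from 1.5 months -1.17, edgeR adjusted p = 0.068). The share of all genes with the fish of 4.5 months lowest was not counted. The receptor-like gene gpr50 ran from 5.09 to 7.11 CPM in its age means, and mtnr1al had 0.09788 to 0.5694 CPM in the 12 fish.

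Known regulators of AANAT, from work mostly in other vertebrates, include the photoreceptor transcription factors CRX and OTX2, the cAMP-dependent kinase and the 14-3-3 proteins that protect the phosphorylated enzyme. Of 14 tested genes of this kind edgeR called 0 in each of the 6 contrasts, against 0.0 to 3.03% of all genes. An unadjusted p under 0.05 was found for 1 to 5 of them, and DESeq2 called 0 to 2. Over all genes these were again 8.35 to 22.2% and 199 to 2090 genes. The crx RNA ran from 491.6 to 749.5 CPM over the 12 fish, with log2 changes from 1.5 months of -0.01, -0.09 and -0.19. The otx2b RNA stood at 45.45 to 52.98 CPM at 1.5 months and at 23.64 to 40.55 CPM in the 9 older fish. Its log2 change from 1.5 to 6.0 months was -0.76 ± 0.20 (edgeR adjusted p = 0.0621), and -0.76 without the Resub libraries. An entry named otx1 stood at 24.07 to 28.04 CPM at 1.5 months and at 10.76 to 20.65 CPM later. Thus 2 of the 14 had all fish of 1.5 months above all older fish, against 2.92% of tested genes, and 0 had them below, against 3.07%. From 1.5 to 4.5 months 5 of the 14 had a log2 change above 0.

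Transcripts of aanat1 were also set against those of photoreceptors, the cells that make retinal melatonin. For each 1000 CPM of rod genes there were 7.56 ± 2.58, 15.5 ± 2.48, 16.9 ± 6.24 and 28.5 ± 3.6 CPM of aanat1 at the 4 ages (SD, n = 3 each). For each 1000 CPM of cone genes there were 2.66 ± 1.18, 6.49 ± 2.24, 7.13 ± 1.41 and 8.3 ± 0.899 CPM. On both scales the fish of 1.5 months stayed below all older fish. On the rod scale the fish of 6.0 months lay narrowly above the rest (24.4 to 30.9, with the next at 24.1). Their rod RNA was the lowest (5431 to 8399 CPM), which raises any gene on this scale. The share of all genes with such gaps on these scales was not counted. Of the 11 symbols in the pineal marker list only 5 matched an entry. The symbols exorh, parapinopsin and parietopsin had no match, so their RNA could not be looked at. Of the matched genes, bsx had 0 counts in all libraries and tph2 had 9 in total. The non-visual opsin gene valopa had 28 to 103 counts in a library and gng8 had 9 to 36. The fifth matched gene, gngt1, is also a rod gene and made up nearly all of the list's summed level of 519.8 to 2052 CPM. The part of pineal RNA in the aanat2 level was not tested.

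Clock genes were looked at because aanat transcription is under circadian control in many vertebrates and sampling time is not known. The molecular clock is a feedback loop in which activators such as CLOCK and BMAL switch on repressors such as PER and CRY. The Resub libraries lay outside the range of the other 10 for some genes of this loop. For others, such as per2 and cry2, they lay within it. The share of all genes with the Resub libraries outside that range was not counted. They had 15.8 and 22.0 CPM of the repressor gene per1 against 48.2 to 88.5 CPM in the other 10, and 69.9 and 63.1 CPM of per3 against 123.3 to 252.8 CPM. The activator gene clock stood at 207.1 and 200.7 CPM in them against 79.1 to 173.0 CPM. In these libraries aanat1 (224.4 and 202.2 CPM) was below 4.5 months replicate 1 (279.4 CPM), which had tph1 at 208.0 CPM and per1 at 51.3 CPM. The part of sampling time in these levels was not tested.

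Between 1.5 and 4.5 months 1 of 16 clock repressor genes rose and 5 fell (edgeR, against 1.11% of all genes upward and 3.03% in both directions). The gene that rose, nr1d4a of the Rev-erb family of nuclear receptors, averaged 3.61 ± 0.483, 4.93 ± 1.72, 29.0 ± 6.92 and 8.80 ± 0.927 CPM at the 4 ages (SD, n = 3 each). Its log2 change was 3.00 ± 0.26 (edgeR adjusted p = 0.000736) and 2.95 without the Resub libraries. It also rose from 1.5 to 6.0 months (1.28 ± 0.24, edgeR adjusted p = 0.0273), where ciart fell. The genes that fell from 1.5 to 4.5 months were per2 (-0.76), per3 (-1.40), cry5 (-2.02), ciart (-1.14) and nr1d2b (-1.12). Without the Resub libraries, which leaves 1 fish of 4.5 months, their log2 changes were -0.86, -0.88, -1.30, -0.86 and -0.51. With 1 fish at that age, whether a gene passes cannot be set against the main fit. Among 7 activator genes rora fell by 0.51 (edgeR adjusted p = 0.0483), and its log2 change was -0.72 without the Resub libraries. The gene nfil3, a repressor at D-box elements, passed only with all ages tested at once (edgeR adjusted p = 0.0461), with 51.3 and 50.4 CPM in the Resub libraries against 12.2 to 24.2 CPM in the others.

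**Figure D4:**
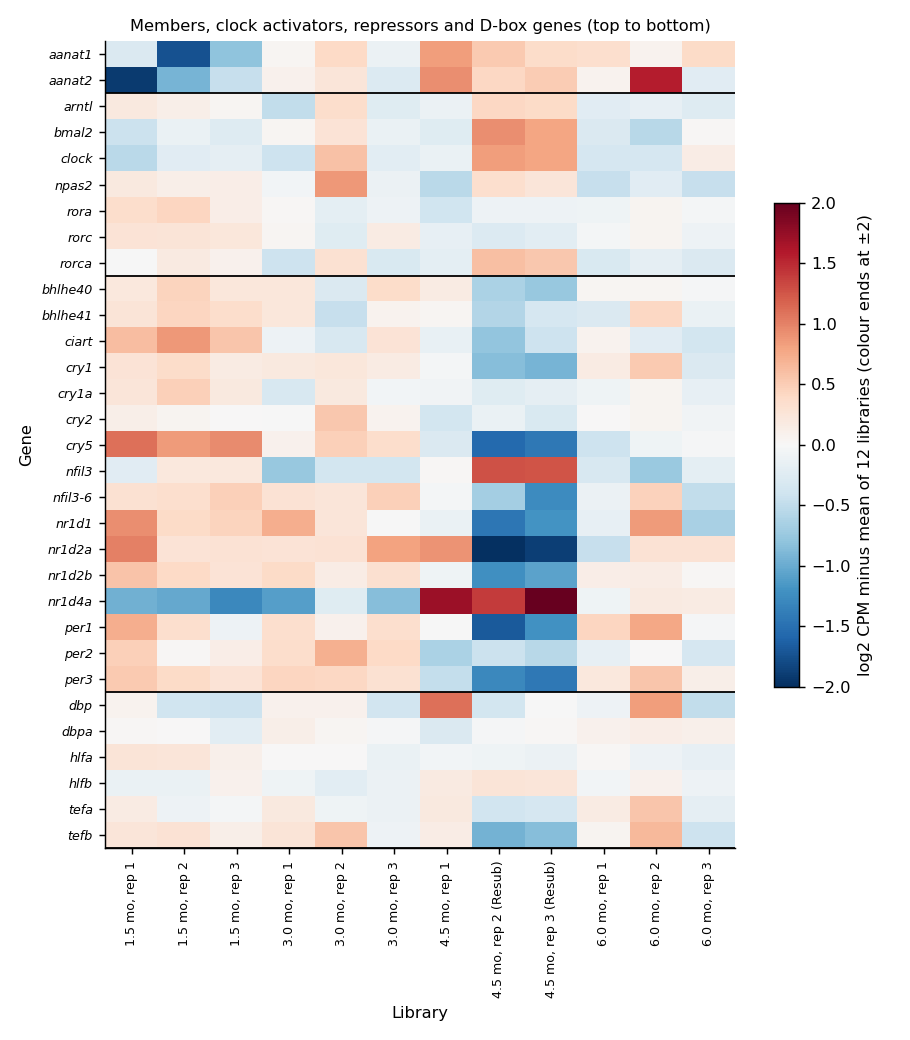
Log2 CPM of aanat1, aanat2 and 29 clock genes (rows) in the 12 libraries (columns), each row minus its own mean, in colours that end at ±2; 0.5 CPM was added before the log, and 0.05 CPM for aanat2. The Resub libraries are blue for per1, per3 and nr1d2a and red for clock and nfil3, while both aanat rows are blue in the 3 fish of 1.5 months.

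Across the 12 libraries 58 pairs of a clock gene with an aanat gene were compared. By Pearson correlation of log2 CPM 3 passed, all with aanat1 and all negative, and by Spearman correlation 8 passed with aanat1. The permutations shuffled all 12 libraries across ages. Their p therefore does not separate a change with age that both genes share from a link between fish of one age. How many of all tested genes reach such an r was not counted. The pair with rora, a nuclear receptor that drives the clock's activators, had r = -0.859 (permutation p = 0.0003, adjusted p = 0.0058; Spearman rho = -0.804, adjusted p = 0.0303). For ciart, a repressor of the activators, r was -0.833 (permutation p = 0.00025, adjusted p = 0.0058; rho = -0.832, adjusted p = 0.0288). For rorc, another receptor of the same family, r was -0.797 (permutation p = 8e-05, adjusted p = 0.00464; rho = -0.916, adjusted p = 0.00522). Without the 2 libraries farthest from the median of aanat1 these were -0.839, -0.688 and -0.873. Without the Resub libraries they were -0.856, -0.856 and -0.799.

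All 3 of these genes had every fish of 1.5 months above all 9 older fish, the mirror image of aanat1. They were picked for a negative r with aanat1, which favours this position, so it gives no further test. Over the whole lists it was held by 2 of 7 activator, 3 of 16 repressor and 1 of 6 D-box genes, against 2.92% of tested genes. For deviations from age means the correlations of rora, ciart and rorc with aanat1 were -0.534, -0.3 and -0.291, smaller in size than over all fish. With aanat2 none of 29 clock genes passed by Pearson correlation and 3 passed by Spearman correlation, namely nr1d4a (rho = 0.762, permutation adjusted p = 0.0407), cry5 (rho = -0.755, permutation adjusted p = 0.0407) and ciart (rho = -0.748, permutation adjusted p = 0.0418). The levels of per1 and clock, which set the Resub libraries apart, passed with neither gene.

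The gene most like aanat1 over the 12 libraries was LOC107382434, for which the annotation gives a protein-coding gene without a name. Among 14147 genes with a mean of at least 5 CPM it had the highest Pearson r of log2 CPM, 0.984 (Spearman rho 0.86), and r was 0.947 for deviations from age means and 0.984 without the Resub libraries. There were 6.81 to 9.85 aanat1 counts for each of its counts. It stood at 12.94, 4.849 and 9.814 CPM at 1.5 months, 23.59, 24.13 and 14.78 CPM at 3.0 months, 33.2, 24.06 and 23.04 CPM at 4.5 months and 24.2, 18.35 and 22.42 CPM at 6.0 months. Its log2 change from 1.5 to 4.5 months was 1.54 ± 0.32 (edgeR adjusted p = 0.0306). The other contrasts of 2 ages did not pass (edgeR adjusted p = 0.0607 to 0.988). It was low and high in the same fish as aanat1, the low 1.5 months replicate 2 and the high 4.5 months replicate 1 included. As it was picked for its r with aanat1, this likeness is no separate result.

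**Figure D5:**
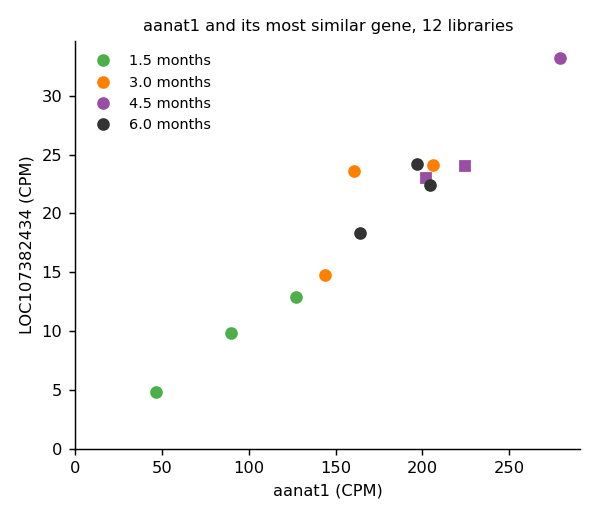
LOC107382434 against aanat1, both in CPM on linear axes from 0; each point is 1 of 12 libraries, coloured by age, with squares for the Resub libraries. The points rise together from 46.64 and 4.849 CPM in 1.5 months replicate 2 to 279.4 and 33.2 CPM in 4.5 months replicate 1.

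LOC107382434 lies on the same chromosome as aanat1 in the RefSeq annotation, with 5 annotated genes between them. Whether its reads or its sequence are shared with aanat1 was not tested, as no sequence was used here. Of the 20 nearest genes of at least 5 CPM around aanat1, 10 on each side, 8 had a positive r, with a median of -0.14. The 20 genes around aanat2 had r from -0.777 to 0.55 (median -0.113). This look at neighbours was chosen after the values of LOC107382434 were seen.

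Next most like aanat1 were parp3 (r = 0.919), a poly(ADP-ribose) polymerase gene, tmco4 (0.878), gclc (0.876), which encodes the catalytic subunit of the first enzyme of glutathione synthesis, and galnt14 (0.867), a glycosyltransferase gene. For deviations from age means these had 0.656, 0.794, 0.891 and 0.717. Only LOC107382434 and parp3 reached 0.9 of the 14147 genes compared. Most like aanat2 were uba7 (r = 0.89), creg2 (0.884), nek4 (0.88), mlx (0.878) and cflar (0.877), a gene of apoptosis control; none of 14148 genes reached 0.9. Correlations over 12 libraries describe these fish, and libraries of one age share that age.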

How the data were processed

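Per the labels' protocols, total RNA was made into Nextera XT libraries and sequenced on 1 NovaSeq S4 lane; the design text states paired-end reads. The aligner, the counting program and the build are not given in the sources used here, nor is the rule for reads shared between paralogs, so no coordinates are printed. The authors deposited whole-number counts per gene, not normalized. A second count table, byte for byte the same, and a normalized table were not used. Of 14589 locus entries 5257 took a symbol from RefSeq by gene number.

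Tests on these counts used edgeR 4.0.16 (R 4.3.3): filterByExpr by age (minimum count 10, total 15; 20717 genes kept), TMM, robust glmQLFit and quasi-likelihood tests, with 1 fit for the contrasts and 1 for the slope. Adjusted p is Benjamini-Hochberg over all tested genes, with a threshold of 0.05. Replicates are called biological in the labels. DESeq2 1.42.0 was an alternative. On simulated data the edgeR fit of 6.0 against 1.5 months recovered 63% of log2 changes of size 1. It recovered 100% of those of size 2. Over both sizes together there were 6 false calls. The simulated fish were independent draws around 1 mean per gene, apart from the placed changes. Shifts shared by many genes of a library, such as lens RNA, were not simulated, so the false calls do not cover them. Changes were placed only in genes with a mean of at least 5 CPM, so the simulation does not cover aanat2. Log2 CPM used a prior count of 2, and correlation tests 100000 resamples that shuffled libraries without regard to age (numpy 2.4.6, Python 3.11.15). A pair of 3 fish against 3 cannot go below an exact p of 0.1.

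The genes and lists were chosen with earlier results of these data known. Named genes were both members, all tested route and receptor genes, and the 5 genes most like each member. Clock genes and regulators that passed a test were named too (at most 8 per list). Neighbours of both members, per1, clock, nr1d2a, crx, otx2b and otx1 were added after their values were seen. Of 18 same-numbered pairs of libraries 8 had deviations correlated above 0.1 (-0.315 to 0.302), while pairs of other numbers had -0.398 to 0.469. The main fits took replicate numbers as no pairing, which was not tested.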

Additional observations from a re-analysis of the deposited data

How the results depend on the processing

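Of 335 alternative values for 18 results, 314 kept direction and side of the threshold. The aanat1 rise from 1.5 to 4.5 months (log2 change 1.42 ± 0.30) no longer passed without the 3 libraries with lens RNA (0.96 ± 0.23). Without the Resub libraries, which leaves 1 fish of 4.5 months, the change was 1.66. It ranged from 1.12 to 1.79 with 1 library left out. The cause of these differences was not tested. DESeq2 passed values that edgeR did not: for aanat1 6.0 against 1.5 months (1.09), all ages at once (1.41) and the slope (0.25), and for aanat2 4.5 and 6.0 against 1.5 months (1.75 and 1.84) and the slope (0.40). The aanat2 change from 4.5 to 6.0 months (0.08) turned to -0.09 with the replicate block and to -0.22 without the Resub libraries, and ranged from -0.75 to 0.4 with 1 library left out; that from 3.0 to 6.0 months ranged from -0.12 to 1.03. The correlation of both genes (0.57) was 0.47 without the lens libraries and ranged from 0.51 to 0.67 with 1 library left out. Its permutation p was under 0.05 without 1.5 months replicate 1 or 6.0 months replicate 2. That p includes any change with age that both genes share. With the replicate block, which changed no call of either gene, the aanat1 rise to 4.5 months was 1.46, and genes called numbered 214 in place of 458 for all ages at once, 141 in place of 242 for the slope, 47 in place of 124 from 4.5 to 6.0 months and 10 in place of 4 from 1.5 to 3.0 months. Counts of genes from 1.5 to 4.5 months were 627 in edgeR, 2090 in DESeq2 and 1029 without the lens libraries. With 1 library left out they ran from 5 (without 4.5 months replicate 3) to 2841 (without 4.5 months replicate 1). The lowest counts, 7 and 5, came without 4.5 months replicate 2 or 3, each a Resub library. The fits with 1029 and 2841 genes left only Resub libraries at 4.5 months, so there Resub and age cannot be told apart. From 1.5 to 6.0 months the counts of genes were 575 in edgeR, 1911 in DESeq2 and 0 without the lens libraries. With 1 library left out they ran from 8 (without 1.5 months replicate 3) to 1184 (without 4.5 months replicate 1). The shares of all genes called thus change with the libraries included. Leaving out the Resub libraries for the ratio and the correlations was chosen after seeing the data. Counting error limits aanat2, with at most 99 counts in a library.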
